A study of Capra hircus with 9 samples.

Results

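The 9 genes described here are complement genes, namely C1QA, C1QB, C1QC, C1R, C1S, C2, C3, CFB and CFI, followed in mammary gland tissue of 9 Laoshan dairy goats. They were chosen by symbol from a table of 23499 genes, all 9 were found there, and all 9 passed the filter of at least 0.5 FPKM in at least 3 libraries, which left 14701 genes for testing. Each goat gave 1 library, and each stage had 3 of them. Late lactation (LL) was sampled 240 days postpartum, the dry period (DP) at 300 days postpartum, and late gestation (LG) on day 140 after mating. All goats were healthy, in the third parity, about 4 years old on average and kept on 1 farm, and the tissue was taken at slaughter. Whole gland was sequenced, so each value sums over epithelium, stroma, vessels and immune cells.

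Complement is a cascade of plasma and tissue proteins that marks microbes and cell debris for removal. In the classical pathway, C1q, built from the chains encoded by C1QA, C1QB and C1QC, binds a target and activates the proteases C1r and C1s, which cleave C4 and C2 to form an enzyme that splits C3. In the alternative pathway factor B, encoded by CFB, takes the place of C2, and factor I, encoded by CFI, is a protease that inactivates the deposited fragments of C3 and C4. The liver makes much of the plasma pool, macrophages are the main source of C1q, and in many tissues fibroblasts and epithelial cells make C1r, C1s, C3 and factor B.

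After scaling between libraries, 8 of the 9 genes rose in DP vs LL, where 22.6% of all genes tested were called (13.8% higher, 8.79% lower), and 7 of these 8 fell in LG vs DP, where 13.3% were called (6.37% higher, 6.88% lower). Between LG and LL 2 of the 9 were called, CFI higher and C1R lower, against 17.3% of all genes (10.7% higher, 6.61% lower). C1QA, C1QB and C1QC were 2.74, 2.67 and 2.91 times as high in DP as in LL by scaled means, C1R and C1S 3.99 and 4.01 times, and C2 and CFB 2.98 and 2.76 times. CFI, the inhibitor, was 5.46 times as high in DP and 6.09 times as high in LG as in LL. C3, the central component and the one of the 9 with the highest mean in each stage, was the single one not called in any of the 3 comparisons. Calls needed both a limma p, adjusted over the 14701 genes by Benjamini-Hochberg, below 0.05 and a log2 fold change no smaller in size than 1. In whole tissue, fewer cells of a type and less RNA per cell cannot be told apart.

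The table holds 1 value per gene and library, read as FPKM, a measure that corrects fragments for transcript length and library size. The summed FPKM was 940676 to 1157015 for LL, 601250.2 to 616268 for DP and 733277 to 768157 for LG, and the 10 highest genes held 80.6% to 86.0% of it in LL libraries and 53.6% to 58.5% in the others. FPKM carry no count of reads, so the depth behind a value is unknown here. Libraries were brought to a common scale by median ratios, with factors between 0.498 and 0.606 for LL, between 1.44 and 1.53 for DP and between 1.198 and 1.31 for LG. Leaving this out shifted the median gene by 1.09 (log2) in DP vs LL, by 0.93 between LG and LL, and by -0.18 between LG and DP. Unscaled values also turned the split of all calls in DP vs LL from 2029 higher and 1292 lower to 7979 and 369, that in LG vs LL from 1572 and 972 to 6698 and 345, and that in LG vs DP from 937 and 1011 to 715 and 1577. Log2 fold changes are on the log2(scaled FPKM + 1) scale, which understates changes of low genes. Libraries of 1 stage correlated across genes at 0.920 to 0.980, and those of different stages at 0.752 to 0.868.

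Not all of these rows are separate measurements. C2 (gene ID 102176085, chromosome 23, 22541323 to 22553013, plus strand) and CFB (gene ID 102175816, chromosome 23, 22553424 to 22559438, plus strand) lie 410 bases apart. The C2 and CFB rows hold the same FPKM in each of the 3 LL libraries, namely 1.91, 2.03 and 3.03. In DP replicates 1 to 3 the C2 row exceeds the CFB row by 1, 1.5 and 1.5 FPKM, and in LG replicates 1 to 3 by 1.5, 1.2 and 1 FPKM. C1R (gene ID 102188835, chromosome 5, 102304272 to 102315322, plus strand) is tied in the same way to the next row, LOC102188569, a gene with no symbol (gene ID 102188569, chromosome 5, 102267517 to 102275184, plus strand). LOC102188569 exceeds C1R by 2.08 to 2.58 FPKM in every library, and a straight line between these rows leaves at most 0.307% of the range of C1R. Relative to DP replicate 1, the differences in the other DP libraries and in LG are 0.5, 0.5, 0.5, 0.2 and 0 FPKM for both pairs. Which of the 2 rows in a pair carries a measured value cannot be told from the table, and the values of C2, CFB and C1R, and of C1S in LL replicate 1, are given below with that limit.

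Among the 3 C1q rows no value was equal in any library and no fixed amount was seen. C1QA (gene ID 102187545, chromosome 2, 5770491 to 5773472), C1QC (gene ID 102187279, chromosome 2, 5777650 to 5782031) and C1QB (gene ID 102186813, chromosome 2, 5789994 to 5797051) follow each other on the plus strand with gaps of 4177 and 7962 bases. C1QA exceeds C1QB by 2.72 to 41.7 FPKM and C1QC by 1.69 to 23.8 FPKM, and C1QC exceeds C1QB by 0.97 to 17.9 FPKM. C1S (gene ID 102189289, chromosome 5, 102333534 to 102344868, minus strand) lies 18211 bases from C1R and exceeds it by 2.08 to 74.9 FPKM. In LL replicate 1 that difference is 2.08 FPKM, the same as between LOC102188569 and C1R, so C1S and LOC102188569 hold the same value there (8.85 FPKM), while in the other 8 libraries they differ. In all, 110 pairs of a member with one of the 8 next rows on either side were compared, and C1R with LOC102188569 was the single pair with a residual under 1%. C2 with CFB was at 4.14%, close to the 4.5% of C1QB with C1QC and the 5.13% of C1R with C1S, so the residual alone does not separate tied from untied rows.

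**Figure D1:**
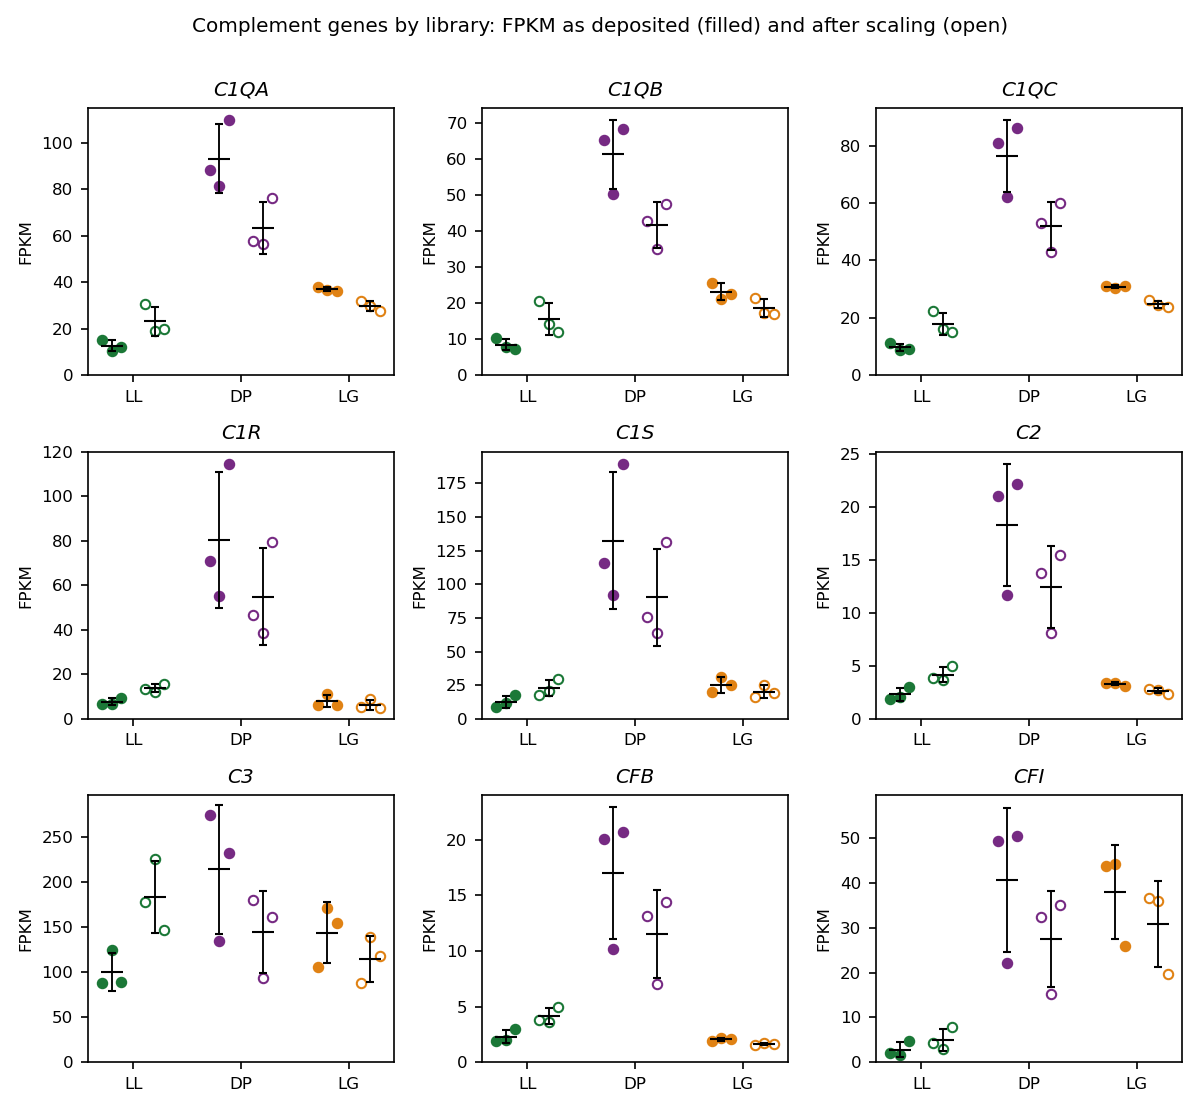
FPKM (y axis, linear, from 0) of the 9 complement genes in each library of LL, DP and LG (x axis), with filled points for the deposited values, open points for the values after scaling, and black bars for the mean and SD of 3 libraries. In C3 the filled points of DP lie above those of LL, while the open points of LL (146.7 to 226.1) and DP (93.7 to 179.9) overlap. The share of all genes without overlap between stages was not computed.

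The C1q chains, which form the recognition part of the first component, moved together. C1QA was at 15.2, 10.6 and 12.1 FPKM for LL, 88.4, 81.3 and 110 for DP and 38.1, 36.9 and 36.5 for LG (replicates 1 to 3 of each stage). The lowest DP library lay above the highest LG library, and the lowest LG library above the highest LL library. Its mean was 12.6 ± 2.32 FPKM for LL, 93.2 ± 14.9 for DP and 37.1 ± 0.868 for LG (SD, n = 3 each). After scaling, its log2 fold change was 1.43 (standard error, SE, 0.20, limma adjusted p = 0.00032) in DP vs LL and -1.06 (limma adjusted p = 0.00343) in LG vs DP. Set against LL, the LG libraries gave a log2 fold change of 0.37 (95% interval -0.08 to 0.83, limma adjusted p = 0.149) and not called.

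C1QB was at 10.2, 7.91 and 7.32 FPKM for LL, 65.1, 50.3 and 68.3 for DP and 25.7, 21.2 and 22.5 for LG. For C1QC the values were 11.2, 8.94 and 9.13 FPKM for LL, 80.9, 62.1 and 86.2 for DP and 31.2, 30.3 and 31.1 for LG. Both genes kept the order DP, LG, LL without overlap in the deposited values. Their log2 fold changes after scaling were 1.38 and 1.5 in DP vs LL (SE 0.21 and 0.18, limma adjusted p = 0.000448 and 0.00013) and -1.12 and -1.03 in LG vs DP (limma adjusted p = 0.00282 and 0.00235). In LG vs LL C1QB stood at 0.26 and C1QC at 0.47 (limma adjusted p = 0.317 and 0.0571), and neither was called. Without scaling all 3 chains were called higher in LG than in LL, at 1.5 for C1QA, 1.36 for C1QB and 1.57 for C1QC. The median gene shifted by 0.93 there, a figure damped by low genes, and the chains themselves shifted by more. The falls in LG vs DP were close to the threshold, and without DP replicate 3 C1QA (-0.91) and C1QC (-0.92) were not called.

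The proportions of the chains to each other varied little. The ratio of C1QA to C1QB within a library, which needs no scaling, was 1.5 ± 0.156 for LL, 1.53 ± 0.148 for DP and 1.61 ± 0.126 for LG (SD, n = 3 each). The ratio of C1QC to C1QB was 1.16 ± 0.0796, 1.25 ± 0.0140 and 1.34 ± 0.112 (SD, n = 3 each) from LL to DP to LG. The stages overlapped in both ratios. Over the 9 libraries, which share their stage differences, log2 scaled values of the chains had Pearson correlations of 0.983 to 0.990 with each other. Outside these rows, the genes most like C1QB over the 9 libraries were LDB2 (r = 0.969), TNFAIP8L2 (r = 0.969) and MESP1 (r = 0.966), out of 11975 genes with a symbol.

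**Figure D2:**
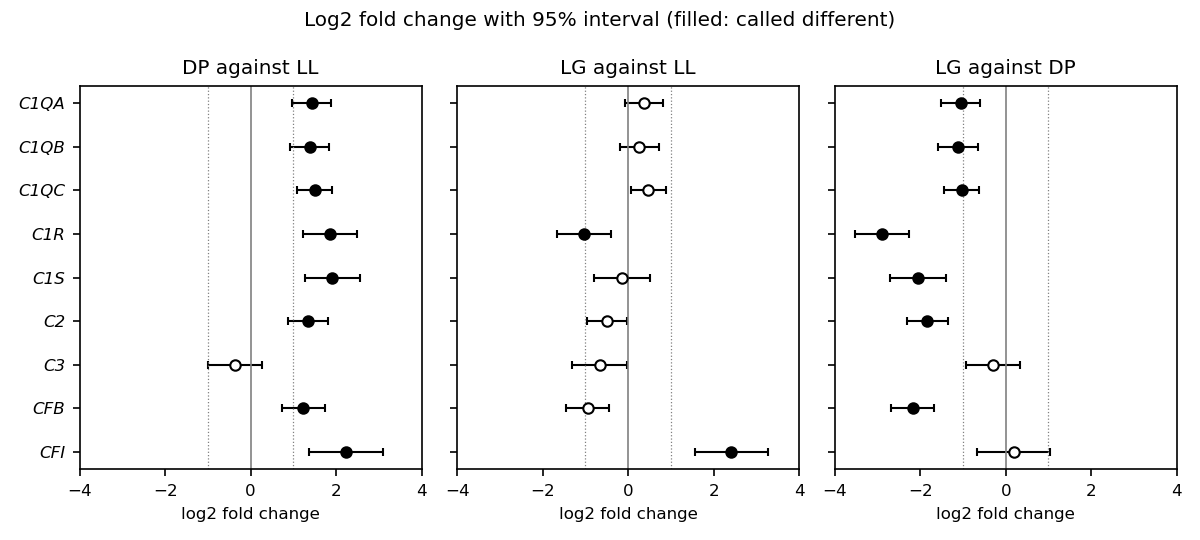
Log2 fold change on the log2(scaled FPKM + 1) scale (x axis) of each complement gene (y axis) in the 3 comparisons, with limma 95% intervals, filled points for genes called different, and dotted lines at a log2 fold change of 1 in either direction. All points but C3 are filled on the right in DP vs LL, and CFI is the single filled point on the right in LG vs LL (2.42).

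The proteases of the first component, C1r and C1s, had the widest rise and fall among the classical pathway genes after scaling. C1S was at 8.85, 11.4 and 17.7 FPKM for LL, 115.7, 92.0 and 189.4 for DP and 19.7, 31.4 and 24.8 for LG. Every DP library was above every other library, and DP replicate 3 was the highest. The log2 fold change of C1S was 1.91 (SE 0.29, limma adjusted p = 0.000504) in DP vs LL, -2.05 (SE 0.29, limma adjusted p = 0.000727) in LG vs DP and -0.14 (95% interval -0.79 to 0.51, limma adjusted p = 0.712) in LG vs LL. The last of these was not called and turned to 0.97 without scaling, 0.01 with quantile normalization and 0.04 without LL replicate 3. Without LL replicate 1, whose C1S value is that of LOC102188569, C1S was at 1.75 in DP vs LL (limma adjusted p = 0.00309) and -2.05 in LG vs DP (limma adjusted p = 0.0014).

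C1R was at 6.77, 6.63 and 9.51 FPKM for LL, 71.1, 55.4 and 114.6 for DP and 6.33, 11 and 6.34 for LG. In the deposited values LL and LG overlapped, and DP stood above both. Its log2 fold change was 1.86 (SE 0.28, limma adjusted p = 0.00052) in DP vs LL and -2.90 (SE 0.28, limma adjusted p = 0.000134) in LG vs DP. C1R was called lower in LG than in LL, at -1.04 (limma adjusted p = 0.0129), but the call was lost with quantile normalization (-0.96) and without LL replicate 3 (-0.97), LG replicate 1 (-0.95) or LG replicate 3 (-0.89), and the value was 0.02 without scaling.

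The ratio of C1R to C1S separated LG from the other stages. It was 0.765, 0.580 and 0.537 for LL, 0.614, 0.602 and 0.605 for DP and 0.321, 0.352 and 0.255 for LG. LG did not overlap with LL or DP (2-sided exact permutation test, p = 0.1 for each, the smallest that 3 against 3 libraries allow, and 0.257 after adjustment over 18 tests of 6 ratios chosen after their values were seen). The C1R value behind this ratio is tied to that of LOC102188569, and in LL replicate 1, which gave the highest ratio, so is that of C1S. The other 2 LL libraries also lay above all LG libraries. Another of the 6 ratios, C1S to C1QB, had means of 1.58 for LL, 2.13 for DP and 1.12 for LG. For it LG lay below DP without overlap (2-sided exact permutation test, p = 0.1, adjusted 0.257), and LL overlapped with both.

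C2, the classical pathway protease that carries the C3-splitting activity, was at 1.91, 2.03 and 3.03 FPKM for LL, 21.1, 11.7 and 22.2 for DP and 3.42, 3.40 and 3.14 for LG. CFB, its counterpart in the alternative pathway, had the same LL values, 20.1, 10.2 and 20.7 FPKM in DP and 1.92, 2.2 and 2.14 in LG. DP stood above LL and LG in both rows, with DP replicate 2 the lowest of the 3. The log2 fold changes in DP vs LL were 1.34 for C2 (SE 0.21, limma adjusted p = 0.000612) and 1.23 for CFB (SE 0.22, limma adjusted p = 0.00145). In LG vs DP they were -1.83 for C2 (limma adjusted p = 0.000272) and -2.17 for CFB (limma adjusted p = 0.00016). For LG vs LL they were -0.49 for C2 (limma adjusted p = 0.0789) and -0.94 for CFB (limma adjusted p = 0.00663), neither of them called. Since the rows differ only by amounts of 0 to 1.5 FPKM, the gap between -0.49 and -0.94 comes from those amounts alone. With a pseudocount of 0.1, or without LL replicate 1 or 2, CFB passed the threshold in LG vs LL, at -1.26, -1.02 and -1.04.

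C3 (gene ID 100860826, chromosome 7, 92699553 to 92735804, minus strand) encodes the component on which all activation routes converge, whose fragments coat targets and attract leukocytes. It was at 88.4, 125.1 and 88.8 FPKM for LL, 274.9, 135.0 and 232.6 for DP and 105.8, 171.6 and 154.9 for LG. In the deposited values every DP library was above every LL library, and LG overlapped with both. After scaling the means were 183.5 ± 40.0 for LL, 145.1 ± 45.4 for DP and 115.1 ± 25.5 for LG (SD, n = 3 each), LL and DP overlapped, and LG lay below LL. The log2 fold change in DP vs LL was -0.37 (95% interval -1 to 0.26, limma adjusted p = 0.284) after median-ratio scaling. It was 0.50 with quantile normalization, where it was not called, and 1.04 without scaling, where it was called. The median gene shifted by 1.09 without scaling. The added 1 damps the shift of low genes, so 1.09 is not the shift of a gene as high as C3. The direction of C3 in DP vs LL therefore depends on the scaling. Between LG and LL it was -0.67 (95% interval -1.30 to -0.04, limma adjusted p = 0.0737) and 0.50 without scaling, and in LG vs DP -0.30 (95% interval -0.94 to 0.33, limma adjusted p = 0.436).

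The level of C3 against that of the C1q chains was highest in LL. The ratio of C3 to C1QB was 8.69, 15.8 and 12.1 for LL, 4.22, 2.69 and 3.41 for DP and 4.12, 8.08 and 6.89 for LG. LL did not overlap with DP or LG (2-sided exact permutation test, p = 0.1 for each, adjusted 0.257 over the same 18 tests), and DP and LG overlapped. This ratio does not depend on the scaling between libraries. Out of 11975 genes with a symbol, those most like C3 in scaled values were RANBP9 (r = 0.880), TRIP4 (r = 0.872) and MINK1 (r = 0.870). The 9 libraries behind these values share their stage differences, and the ranking was not repeated with another scaling.

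CFI (gene ID 102183858, chromosome 6, 15922309 to 15965996, plus strand) was the single gene of the 9 that rose in both DP and LG vs LL. It was at 2.17, 1.66 and 4.71 FPKM for LL, 49.4, 22.0 and 50.4 for DP and 43.8, 44.3 and 25.9 for LG. All DP and LG libraries were above all LL libraries, and DP and LG overlapped. The log2 fold change was 2.23 (SE 0.38, limma adjusted p = 0.00103) in DP vs LL and 2.42 (SE 0.38, limma adjusted p = 0.000811) in LG vs LL. In LG vs DP it was 0.18 (95% interval -0.67 to 1.04, limma adjusted p = 0.741), and the sign turned without scaling (-0.04), with quantile normalization (-0.05) and without DP replicate 2 (-0.17). The ratio of CFI to C3 was 0.0303 ± 0.0205 for LL, 0.187 ± 0.0274 for DP and 0.280 ± 0.125 for LG (SD, n = 3 each), and LL did not overlap with either stage (2-sided exact permutation test, p = 0.1 for each, adjusted 0.257).

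**Figure D3:**
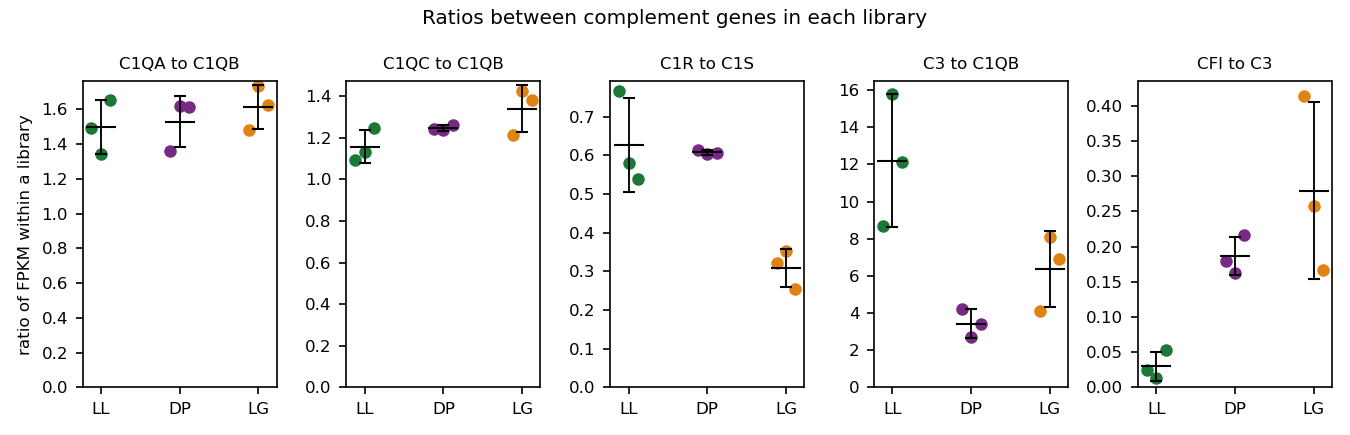
Ratio of FPKM of 2 complement genes within each library (y axis, linear, from 0) in LL, DP and LG (x axis), with black bars for the mean and SD of 3 libraries. The C1q chain ratios overlap between stages, C1R to C1S is lowest in LG (0.255 to 0.352), and C3 to C1QB is highest in LL (8.69 to 15.8). The ratio of C1S to C1QB is not drawn.

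The median log2 fold change of the 9 genes was 1.43, -0.14 and -1.12 in DP vs LL, LG vs LL and LG vs DP, beside 0.00, 0.02 and 0.01 over all genes tested. The comparisons share their libraries, so counts and medians are not independent of each other. With CFB and C1R left out, an alternative chosen after the values were seen, the counts were 6 of 7 higher in DP vs LL, 1 higher and 0 lower in LG vs LL, and 5 of 7 lower in LG vs DP. Without scaling 9 were called higher in DP vs LL, where 54.3% of all genes were, and 4 were called higher and 0 lower in LG vs LL, where 45.6% and 2.35% of all genes were, so the 4 of 9 is near the share of all genes.

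The order of levels differed between the stages, as compared by deposited FPKM, which are per length. C3 had the highest mean in LL (100.8 FPKM), DP (214) and LG (144), clear of the next gene in LL and LG but not in DP. In LL, C1S (12.7), C1QA (12.6), C1QC (9.74), C1QB (8.47) and C1R (7.64) followed with ranges that overlapped from each to the next, and CFI (2.85) and the C2 and CFB rows (2.32 each) were below them. In DP, C1S (132.4), C1QA (93.2), C1R (80.4), C1QC (76.4), C1QB (61.2), CFI (40.6), C2 (18.3) and CFB (17.0) followed C3, and no gene was clear of the next. In LG, CFI (38.0) was second and overlapped with C1QA (37.1), and then came C1QC (30.8), C1S (25.3) and C1QB (23.1), with C1R (7.90), C2 (3.32) and CFB (2.09) each clear of the gene before.

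The rest of the cascade was followed through a list of 41 other complement genes, covering the lectin pathway, terminal components, regulators and receptors. Rows were found under 33 of these symbols, and the other 8 were not analysed here. Of the 33, 22 passed the filter and 11 did not, of which 4 were listed at 0 in every library and 7 reached at most 1.58 FPKM. Of the 22, 6 were called higher and 2 lower in DP vs LL, 1 higher and 5 lower in LG vs LL, and 0 higher and 7 lower in LG vs DP, with medians of 0.48, -0.44 and -0.79. The shares of all genes tested were 13.8% higher and 8.79% lower, 10.7% and 6.61%, and 6.37% and 6.88% in the same order. The genes called lower in both comparisons with LL include C5, which passed the filter through its LL libraries alone. Without scaling, 13 were called higher and 2 lower in DP vs LL, 6 higher and 3 lower in LG vs LL, and 0 higher and 12 lower in LG vs DP, where 54.3% and 2.51%, 45.6% and 2.35%, and 4.86% and 10.7% of all genes were called higher and lower.

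SERPING1, which encodes the inhibitor of C1r and C1s, followed their pattern, at 5.86, 5.34 and 6.38 FPKM for LL, 44.1, 31.7 and 65.3 for DP and 10.2, 13.7 and 7.42 for LG. It rose by 1.45 (limma adjusted p = 0.00192) in DP vs LL and fell by 1.79 (limma adjusted p = 0.00115) in LG vs DP. CFP, which encodes properdin, the stabilizer of the alternative pathway enzyme, was at most 0.170 FPKM in LL and 2.22 to 3.83 in DP, with log2 fold changes of 1.30 (limma adjusted p = 0.000402) in DP vs LL and -1.08 (limma adjusted p = 0.00231) in LG vs DP. The latter was not called with quantile normalization (-0.88) or without DP replicate 3 (-0.88) or LG replicate 3 (-0.97). CFP was named after its values were seen, as were ITGAM, ITGAX, ITGB2 and CD93.

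Receptors for complement fragments on myeloid cells rose in part in DP. VSIG4, a macrophage receptor for C3 fragments, was at 0.0900 to 0.140 FPKM for LL, 3.82 to 4.5 for DP and 1.31 to 1.67 for LG, with no overlap between the stages, and rose by 1.66 (limma adjusted p = 4.86e-06) in DP vs LL. C3AR1, the receptor of the C3a fragment, was at 0 to 0.210 FPKM for LL, 2.93 to 4.36 for DP and 1.23 to 1.40 for LG and rose by 1.60 (limma adjusted p = 3.33e-05). In LG vs DP both were lower by less than the threshold, at -0.80 and -0.81, and both passed it without scaling, at -1.04 and -1.06. CR2, the B cell and follicular dendritic cell receptor for C3d, rose by 1.23 (limma adjusted p = 0.00987) in DP vs LL and fell by 1.61 (limma adjusted p = 0.00464) in LG vs DP. The rise of CR2 was not called with quantile normalization (0.70) or without DP replicate 3 (0.91).

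The integrin chains of the receptors for iC3b gave a mixed picture. ITGAM was called in no comparison, at 0.07 in DP vs LL, -0.72 in LG vs LL and -0.79 in LG vs DP (limma adjusted p = 0.850, 0.0708 and 0.0669). ITGAX was at 1.37 (limma adjusted p = 0.00363) in DP vs LL, a call lost without DP replicate 1 (0.96). ITGB2 was at 0.59 (limma adjusted p = 0.0212) in DP vs LL and not called. ITGB2 fell by 1.15 (limma adjusted p = 0.00137) in LG vs DP, a call lost without DP replicate 1 or LG replicate 3, where it stayed just under 1 in size. C5AR1, the receptor of the C5a fragment, was at 1.77, 9.15 and 5.84 FPKM for LL, 4.98, 10.8 and 12.4 for DP and 0.940, 1.49 and 1.24 for LG. Its log2 fold change was -2.27 (limma adjusted p = 0.0027) in LG vs LL and -1.83 (limma adjusted p = 0.0117) in LG vs DP, while LL and DP overlapped. CD93, a surface protein of endothelial and myeloid cells, was the single other gene called higher in LG vs LL (1.17, limma adjusted p = 0.0385), and that call was lost with quantile normalization, without the filter and without LL replicates 1, 2 or 3 or LG replicates 2 or 3, with values of 1.00 to 1.28.

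Among the terminal components, C9 and C5 were highest in LL. C9, which forms the ring of the membrane attack complex, was at 36.8, 47.3 and 31.2 FPKM for LL, 0.3, 0.28 and 0.19 for DP and 0.5, 0.53 and 0.44 for LG. Its log2 fold change was -5.90 (SE 0.17, limma adjusted p = 2.95e-08) in DP vs LL and -5.65 (SE 0.17, limma adjusted p = 2.41e-07) in LG vs LL. C5, which starts that complex, was at 3.18, 2.42 and 2.61 FPKM in LL, 0.09 to 0.11 in DP and 0.04 in each LG library. Its log2 fold changes were -2.48 and -2.53 in these comparisons. The falls of C9 were called in all alternatives run, those without scaling included. C5 passed the filter through its 3 LL libraries alone, so its calls against LL are not independent of the filter and are no support for a fall. C5 was not tested when any of them was left out, and it was called lower in the other alternatives. C7, another component of that complex, was at 2.80, 8.27 and 11.5 FPKM for LL, 38.5, 16.3 and 55.6 for DP and 3.11, 3.14 and 7.37 for LG, and fell by 2.42 (limma adjusted p = 0.00502) in LG vs DP. Its fall in LG vs LL (-1.55, limma adjusted p = 0.0263) was lost without scaling (-0.54), without the filter, and without LL replicate 2 (-1.42), LL replicate 3 (-1.25), LG replicate 1 (-1.40) or LG replicate 2 (-1.39). The C7 row is tied to that of CARD6, which lies 2.86 to 3.36 FPKM above it. PTX3, a pattern recognition protein that binds C1q, was at 10.7, 28.5 and 212 FPKM in DP and had log2 fold changes of -3.14 (limma adjusted p = 0.024) in LG vs DP and -3.02 (limma adjusted p = 0.0201) in LG vs LL. The first of these calls was lost in the fit of those 2 stages and without LG replicate 1 or 2, at -3.25, -2.58 and -3.23, and the second without scaling and without LL replicates 1 or 3 or LG replicate 1, at -1.98, -2.95, -2.92 and -2.46.

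**Figure D4:**
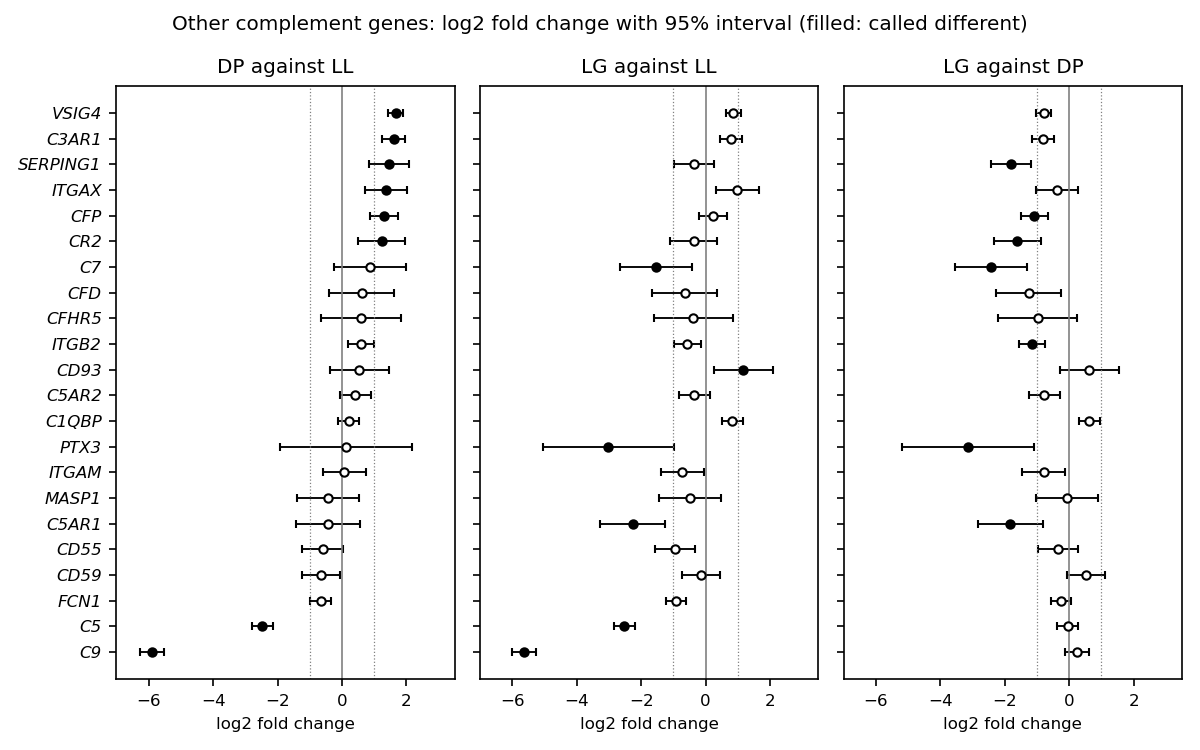
Log2 fold change on the log2(scaled FPKM + 1) scale (x axis) of the 22 other complement genes that passed the filter (y axis, ordered by DP vs LL) in the 3 comparisons, with limma 95% intervals and filled points for genes called different. C9 lies at -5.90 in DP vs LL and -5.65 in LG vs LL, far to the left of the other genes, and in LG vs DP all 7 filled points are on the left.

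Markers of the cells that make complement also differed between these stages. Of all genes tested, 13.8% were called higher and 8.79% lower in DP vs LL. The shares were 10.7% and 6.61% in LG vs LL and 6.37% and 6.88% in LG vs DP. Of the macrophage and monocyte list, 12 of 14 genes were found and none was at 0 throughout. Of the 11 tested, 5 were called higher and 0 lower in DP vs LL. In LG vs LL 1 was called higher and 3 lower, and in LG vs DP 0 and 8. The 12 found summed to 129.9 to 150.7 scaled FPKM for LL, 206 to 231 for DP and 114 to 121 for LG. Of the 10 fibroblast genes, all found and tested, 9 were called higher and 0 lower in DP vs LL. In LG vs LL 2 were called higher and 1 lower, and in LG vs DP 0 and 6. The sum of the 10 was 260 to 395 for LL, 664 to 2890 for DP and 562 to 1008 for LG. Called or not, 6 of them lay higher and 4 lower in LG vs LL, with a median of 0.16 (log2). Their higher sum in LG than in LL therefore does not follow the list as a whole. The sum of the 10 epithelial genes, all above 0 in some library, was 939.8 to 1195 for LL, 384 to 690.1 for DP and 889.6 to 1049 for LG. All 10 epithelial genes were tested, and in DP vs LL 0 were called higher and 1 lower. Called or not, 4 of them lay higher and 6 lower in DP, with a median of -0.29 (log2). Their lower sum in DP therefore does not follow the list as a whole. In LG vs LL 0 epithelial genes were called, and in LG vs DP 1 higher and 0 lower. The part of these cell types in the changes of the complement genes was not tested.

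The remaining lists served as values for other cells in the tissue. The 7 T cell genes summed to 6.17 to 6.91 for LL, 24.1 to 75.4 for DP and 24.6 to 42.8 for LG. All 7 were called higher in DP vs LL, 5 in LG vs LL and 1 in LG vs DP, and 0 were called lower. Of all genes tested, 13.8%, 10.7% and 6.37% were called higher in the same order. The 7 B cell and plasma cell genes summed to 192.8 to 846.5, 40.4 to 138.9 and 10.9 to 23.1 in LL, DP and LG. The 8 endothelial genes summed to 121.5 to 150.3, 147 to 225 and 71.7 to 100.2, the 5 neutrophil genes found to 8.46 to 23.4, 10.3 to 38.1 and 4.75 to 12.4, and the 5 adipocyte genes to 14.2 to 24.0, 12.4 to 30.3 and 5.58 to 10.7 in the same order. Only 2 of the 7 B cell and plasma cell genes passed the filter, so their sum does not follow the list as a whole. The filter was passed by 4 of the 5 neutrophil genes found and by 3 of the 5 adipocyte genes.

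**Figure D5:**
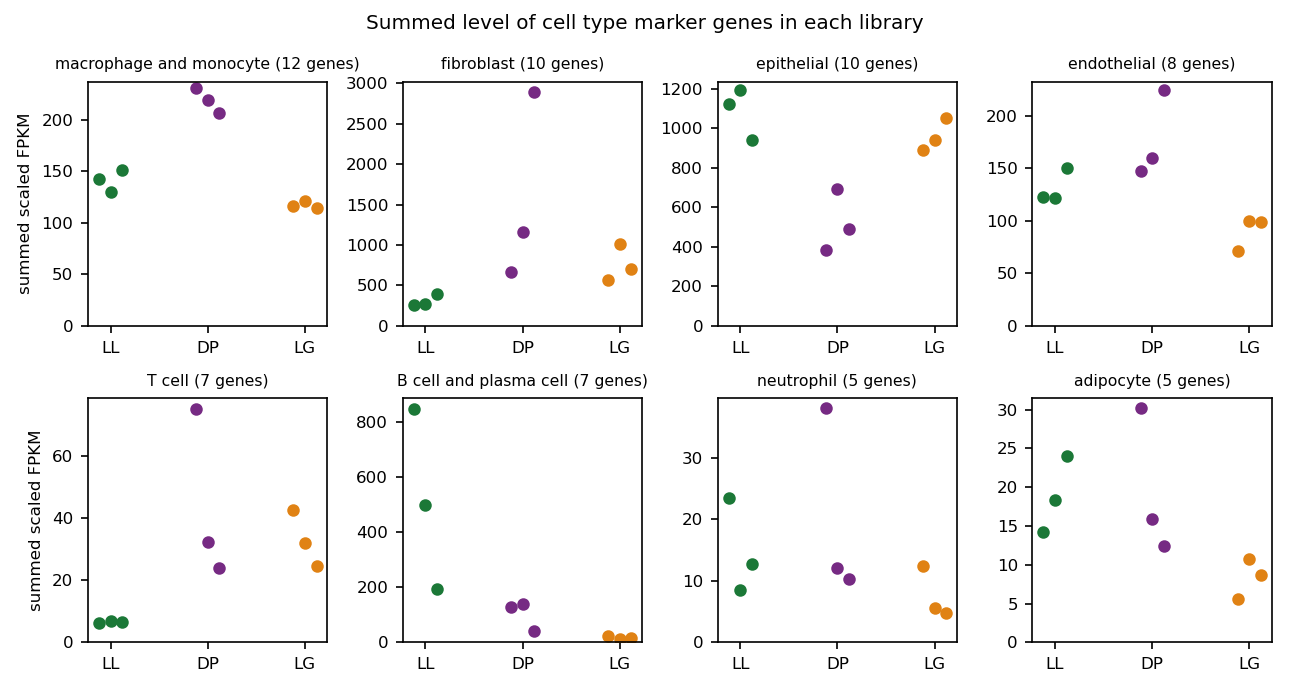
Summed scaled FPKM (y axis, linear, from 0) of 8 lists of cell type marker genes in each library of LL, DP and LG (x axis), with the number of genes found in each title. The macrophage and monocyte sums are highest in DP (206 to 231), and the epithelial sums are lowest there (384 to 690.1).

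Set against these sums within the same library, the complement genes did not all scale with the markers. The ratio of C1QA to the summed macrophage and monocyte markers was 0.133 to 0.214 for LL, 0.250 to 0.371 for DP and 0.243 to 0.274 for LG, so LL lay below both other stages and DP and LG overlapped. For C1QC it was 0.1 to 0.157, 0.197 to 0.291 and 0.202 to 0.224, with the same order of stages, but for C1QB it was 0.0802 to 0.143, 0.159 to 0.23 and 0.142 to 0.185, so that LL and LG overlapped. The ratio of C1S to the summed fibroblast markers was 0.0683 to 0.0762 for LL, 0.0455 to 0.114 for DP and 0.0253 to 0.0293 for LG, with LL and DP overlapping and LG below both. For C1R that ratio was 0.0397 to 0.0522 for LL, 0.0275 to 0.0701 for DP and 0.00682 to 0.00941 for LG. The fibroblast sum does not follow its list between LG and LL. The lower ratios of C1S and C1R in LG than in LL are therefore not a change against fibroblast genes in general. The ratio of C3 to the summed epithelial markers was 0.156 to 0.189 for LL, 0.136 to 0.469 for DP and 0.0993 to 0.148 for LG, so that LL and LG did not overlap and DP overlapped with both.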

How the data were processed

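RNA of mammary gland tissue from 9 goats was made into libraries with a TruSeq kit, which does not mark the strand. The reads were trimmed and aligned with HISAT2. The submitters' processing notes for these samples name HTSeq and not StringTie. The paper names StringTie for quantifying transcripts in its pooled analysis of these and other samples. The authors deposited 1 table of values per gene and library, which names no unit and no genome build. The deposited values carry decimals and were read as FPKM, the unit in which the authors report transcript expression, though no source used here names the unit of this table. How the gene values of this table were computed is not given in the sources used here. Symbols, gene IDs and coordinates are those of the table. The start and end of all 9 complement genes are the same in the RefSeq gene table of ARS1.2. All 9 value columns were used.

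Each library was divided by its median-ratio factor (15905 genes above 0 throughout) and taken to log2 after adding 1. A filter kept 14701 genes that reached 0.5 FPKM in 3 or more libraries. These were fitted by limma (version 3.58.1, R version 4.3.3, moderated variances with a mean trend) on all 9 libraries and no covariates, and p-values were adjusted by the Benjamini-Hochberg method over all genes. The fit was tested on simulated data. Ratios within a library were compared by 2-sided exact permutation tests, which cannot go below 0.1 with 3 against 3 libraries. No count test was run, since FPKM hold no counts.

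The complement genes and the other lists were chosen with earlier results of these data known. The genes named are the 9 complement genes in every comparison, of the other complement genes the 5 called with the largest change in each comparison, SERPING1, C3AR1 and C5AR1 whatever their result (a C4 gene in this rule was not analysed here, and another gene of the list is not reported here), the 3 genes most like C3 and C1QB, and rows tied to a complement gene. A search of promoters for motifs was planned and not run, since no sequence was at hand. Alternatives were no scaling, quantile normalization, trimmed mean scaling, a pseudocount of 0.1, no filter, a minimum of 2 FPKM in 3 libraries, a fit of the 2 stages compared, a block for the replicate number, no mean-variance trend, the adjusted p alone and each library left out in turn.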

Additional observations from a re-analysis of the deposited data

How the results depend on the processing

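The count of complement genes called in DP vs LL (8) and in LG vs DP (7) stayed within 1.5 times under all alternatives, with 8 and 5 to 7 when single libraries were left out. In LG vs LL the count of 2 became 4 without scaling, 1 with quantile normalization, 1 with CFB and C1R left out, and 1 to 3 without single libraries. For the other complement genes, the count in DP vs LL (8) became 15 without scaling and 7 to 10 without single libraries, with C5 dropping below the filter when any LL library was left out. In LG vs LL it went from 6 to 11 with a pseudocount of 0.1, 13 by adjusted p alone and 3 to 6 without single libraries. In LG vs DP it went from 7 to 12 without scaling and 11 by adjusted p alone, and to 5 to 7 without single libraries. Over all genes, 3321, 2544 and 1948 were called in DP vs LL, LG vs LL and LG vs DP. Without scaling the first 2 became 8348 and 7043, by adjusted p alone all 3 became 8359, 7383 and 5112, and a pseudocount of 0.1 gave 3912 in LG vs LL.

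Signs turned without scaling for C1R (0.0187), C1S (0.97), C2 (0.39), C3 (0.50), SERPING1 (0.70) and ITGB2 (0.42) in LG vs LL, for C3 (1.04) and C5AR1 (0.76) in DP vs LL and for CFI (-0.043) in LG vs DP. These fits differ from the main fits only in leaving out the division by the scaling factors. With quantile normalization signs turned for C3 in DP vs LL (0.50), C1S in LG vs LL (0.0055) and CFI in LG vs DP (-0.0507). Leaving out single libraries gave ranges across 0 for C1S (-0.3085 to 0.0422) in LG vs LL, for CFI in LG vs DP (-0.17 to 0.46), and for PTX3 (-1.04 to 1.06) in DP vs LL. None of the results in the last sentence was called with all 9 libraries, and the cause of these turns was not tested. Of the signs that turned without scaling, C1R in LG vs LL was the single one called after scaling (-1.04).

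The replicate numbers do not pair the goats, since each goat gave 1 library. Deviations from the stage means correlated at -0.106 to 0.201 between libraries with the same number and at -0.223 to 0.0722 between others. The highest values (0.201, 0.156, 0.151 and 0.0929) were all between libraries with the same number. In both other stages, 4 of 9 libraries correlated best with their own number. What libraries with the same number share was not tested. With the replicate block, 8, 2 and 7 complement genes and 3340, 2564 and 1986 genes in all were called. The values carry no read counts, so the error of low values such as those of CFP, VSIG4 and C3AR1 in LL is known from 3 libraries only.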
